A study of Mus musculus with 80 samples.

Results

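The genes described here are 8 imprinted genes that neurons are known to use: Meg3, Peg3, Ndn, Snrpn, Impact, Nap1l5, Usp29 and Magel2. They were chosen by name, and all 8 were among the 25160 genes listed in the deposited table. An imprinted gene is transcribed from a single parental copy, and the copy used is set by DNA methylation laid down in the egg or the sperm. Meg3 is used from the maternal copy, whereas the other members are known as genes of the paternal copy. Many imprinted genes sit in clusters that share a control region, and the brain is a tissue in which such genes are widely expressed.

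Each sample was the cDNA of 1 neuron, sorted by fluorescence from the dorsomedial striatum of adult mice that carried both BAC reporters, Drd1a-TdTomato and Drd2-EGFP, each heterozygous. Of the 80 cells, 40 were sorted for Drd1a-TdTomato and 40 for Drd2-EGFP. The reporters mark medium spiny neurons (MSN), the projection neurons of the striatum, which carry either the dopamine receptor Drd1 (D1 MSN) or Drd2 (D2 MSN). The Drd2 promoter is also active in cholinergic interneurons, and 2 Drd2-EGFP cells had Chat, the enzyme that makes acetylcholine, above 100 TPM. These 2 cells, in wells A08 and B02 of plate FACS051_5, were set apart, which left 38 D2 MSN and 78 MSN in all. By the study's methods the cells came from several animals and experiments, but the labels tie no cell to an animal, so each group stood as 1 sample, no test was made, and every difference given below is a description of these cells.

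The labels were checked against defining markers. The summed level of the D1 MSN markers had a median of 2565 TPM in D1 MSN and of 18.1 TPM in D2 MSN, and that of the D2 MSN markers a median of 11.6 TPM in D1 MSN and of 10848 TPM in D2 MSN. A gene was counted as found in a cell above 1 TPM. Between 648 and 10912 genes were found per cell, and the files give no number of reads for a cell. The D1 MSN had a median of 5722 found genes and the D2 MSN of 4928. Drd1 was found in 38 of 40 D1 MSN and Drd2 in 26 of 38 D2 MSN. The summed markers went against the label in 3 cells: the D2 markers exceeded the D1 markers in 2 D1-labelled cells, well C06 of plate FACS051_5 (3682 and 1378 TPM) and well B02 of plate FACS086_4 (10.3 and 1.76 TPM, with 648 genes), and the D1 markers exceeded the D2 markers in 1 D2-labelled cell, well A12 of plate FACS086_9 (1218 and 527 TPM, with 1215 genes). A further D1-labelled cell, well D04 of plate FACS051_5, summed to 13409 TPM over 6 astrocyte markers and to 135 TPM over 8 MSN markers. The D1-labelled cell in well B07 of that plate had Drd1 at 0 but 983 TPM over the D1 markers and 11.96 TPM over the D2 markers. All were kept. Without the first 4 of these cells, the log2 folds given below were -0.92 for Usp29, -0.89 for Ndn, -0.62 for Snrpn, 0.38 for Meg3, 0.52 for Impact, and 0.53 for both Peg3 and Nap1l5. Across the MSN, the summed oligodendrocyte markers had a median of 3.85 TPM in D1 MSN and of 6.11 TPM in D2 MSN. The medians were 8.79 and 6.48 TPM for the astrocyte markers and 31.97 and 30.96 TPM for the endothelial markers. For the microglial markers, of which 2 of 6 names were listed, they were 0.34 and 0 TPM. In each group, only 1 of 6 listed astrocyte markers and 1 of 3 listed endothelial markers had a median above 1 TPM. The highest endothelial sum was 277 TPM, in well A12 of plate FACS086_9, where 1 of the 3 markers was above 1 TPM. The highest oligodendrocyte sum was 348 TPM, in well D04 of plate FACS051_5.

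The genomic start of an imprinted gene often overlaps its control region, where a methylated CpG is read by the zinc finger protein ZFP57 through the letters TGCCGC. The stretches just outside the first exons of Peg3 and Usp29, of Meg3 and of Snrpn are shown because the results below turn on these genes and on whether neighbors moved together. All are from RefSeq on GRCm38.p6, 5′ to 3′, with CG pairs and TGCCGC matches of either strand in capitals.

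A stretch of 96 bases within the gap between the divergent starts of Peg3 and Usp29, chr7:6730463-6730558, plus strand:
Peg3-Usp29: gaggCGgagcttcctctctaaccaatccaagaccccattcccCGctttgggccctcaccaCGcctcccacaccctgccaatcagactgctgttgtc

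The 250 bases before the start of Meg3, chr12:109540746-109540995, plus strand:
Meg3: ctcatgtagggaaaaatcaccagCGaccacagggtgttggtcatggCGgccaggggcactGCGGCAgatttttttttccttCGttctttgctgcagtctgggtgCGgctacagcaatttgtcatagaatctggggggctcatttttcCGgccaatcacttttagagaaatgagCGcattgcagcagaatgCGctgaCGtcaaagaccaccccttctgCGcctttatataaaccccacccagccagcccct

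The 250 bases before the start that Snrpn shares with Snurf, chr7:60005200-60005449, minus strand:
Snrpn-Snurf: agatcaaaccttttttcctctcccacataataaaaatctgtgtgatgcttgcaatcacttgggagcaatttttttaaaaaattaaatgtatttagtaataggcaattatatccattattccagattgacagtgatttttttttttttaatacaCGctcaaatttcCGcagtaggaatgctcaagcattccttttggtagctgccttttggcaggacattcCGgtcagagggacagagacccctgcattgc

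The stretch printed from the Peg3-Usp29 gap, which is not the whole gap, held 3 CG pairs in 96 bases, the Meg3 stretch 10, and the Snrpn-Snurf stretch 3. Over windows of 300 bases, from 250 before to 50 after each RefSeq start, 7 of the 8 members had an entry, with 11 windows in all. Nap1l5 and Usp29 had the most CG pairs, 17 each, followed by Meg3 and Peg3 with 13, Ndn with 11 and Magel2 with 10, where the median over 32851 windows was 7. The 4 windows of Snrpn held 2, 3, 4 and 7, and the second window of Meg3 held 1. In all, 6 of the 11 windows held 10 or more, as did 43.5% of all windows. The windows of Peg3 (chr7:6730370-6730669) and Usp29 (chr7:6730333-6730632) overlap, so the CG pairs they share are counted in both. The letters TGCCGC, read on both strands, were found at 3 members: 2 matches at Nap1l5, 1 at Meg3 and 1 at the start shared by Snrpn and Snurf, where the match lay beyond the stretch shown. These letters were in 3 of the 11 windows and in 11.6% of all windows. The letters GCCATNTT, a core that the factor YY1 binds, were found in 0 of the 11 windows and in 6.05% of all windows. A match of letters is a description of these windows and shows no binding.

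Over the 78 MSN, Meg3 and Snrpn were by far the most abundant members, and Magel2 was close to absent. TPM are scaled by gene length, but cDNA of this kind leans to the 3′ end of long transcripts, so levels set beside each other are approximate for genes as long as Meg3 and Usp29. Meg3, a long non-coding RNA of the Dlk1-Dio3 cluster (chr12:109541001-109571726, plus strand), had a mean of 731 ± 613 TPM (SD over cells), which placed it at rank 82 of the listed genes. Snrpn, the neuronal core protein of splicing particles also called SmN (chr7:59982495-60140219, minus strand), had a mean of 629 ± 465 TPM, rank 100. Nap1l5, a histone-chaperone-like gene within Herc3 (chr6:58905233-58907076, minus strand), followed with 168 ± 245 TPM, rank 611.

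The other members lay together at a lower level. Ndn, or necdin, a MAGE-family protein of postmitotic neurons (chr7:62346569-62350262, plus strand), had a mean of 67.3 ± 106 TPM. Impact, an inhibitor of the GCN2 stress-kinase pathway on chromosome 18, had 52.8 ± 59.7 TPM. Usp29, a ubiquitin-protease gene (chr7:6730578-6967219, plus strand), had 49.2 ± 101 TPM, and its neighbor Peg3, a zinc finger gene (chr7:6703892-6730431, minus strand), 48.2 ± 75.3 TPM. All 4 were among the top 9.71% of listed genes by mean. Gene positions are those of GENCODE M21 on GRCm38, and reads were counted per gene. Genes on the other strand shared 2582 of the 18078 exon bases of Usp29 (Zim3, with a mean under 1 TPM) and 1228 of the 18089 of Meg3 (Gm26906), and the kit does not mark strand.

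Neighbors in this order overlapped widely. Meg3 exceeded Snrpn in 39 of 78 MSN, and by the median the order was the reverse, 533 TPM for Meg3 and 619 TPM for Snrpn. Snrpn exceeded Nap1l5 in 69 MSN, which was the clearest step. Ndn exceeded Impact in 29 MSN although its mean was higher, and its median was 2.70 TPM against 29.7 TPM for Impact. The means of Ndn, Impact, Usp29 and Peg3 thus differed by less than the spread between cells.

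**Figure D1:**
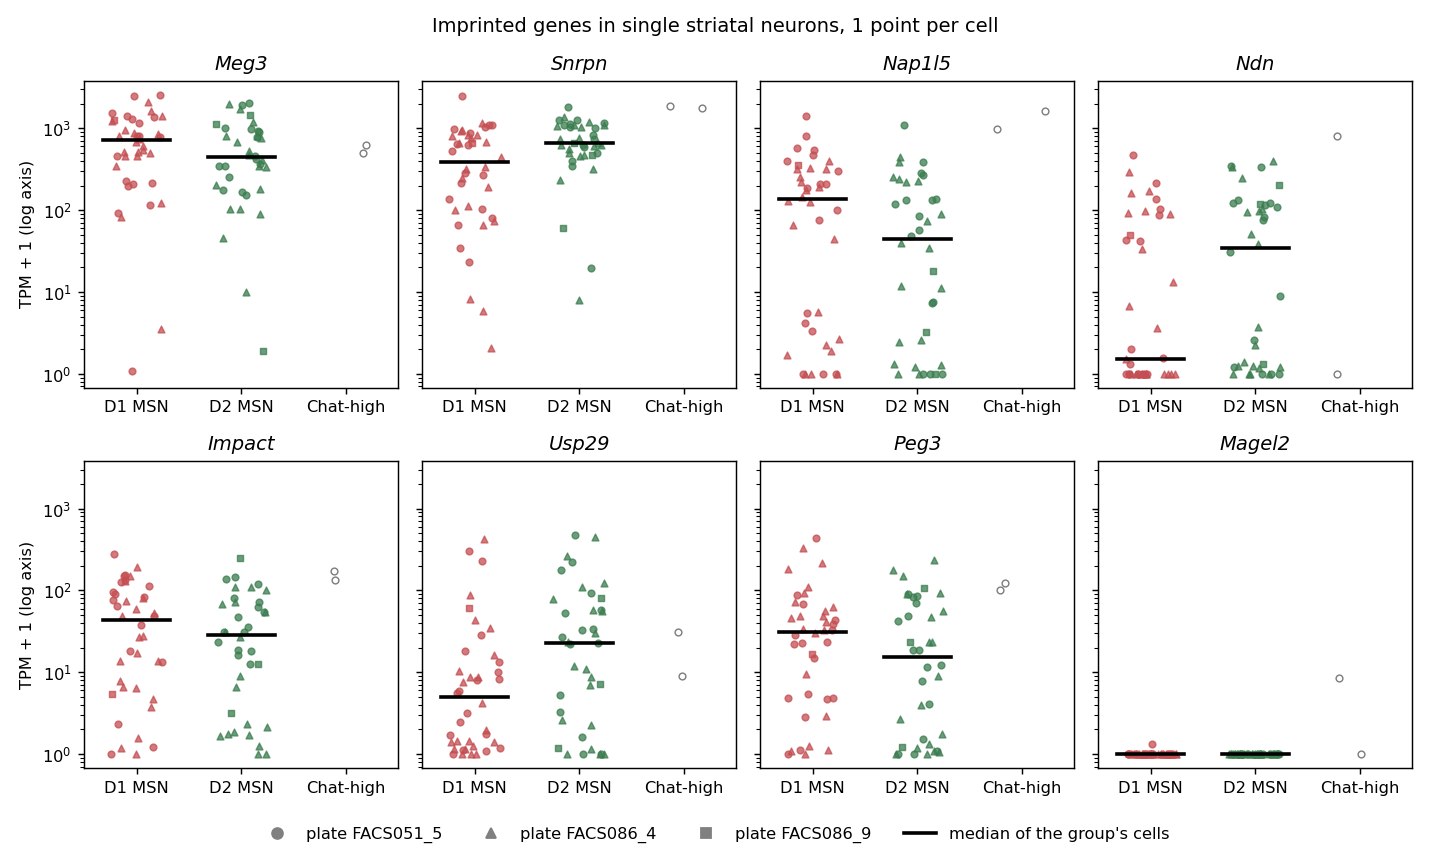
Level of each of the 8 genes as TPM plus 1 on a log axis, with 1 point per cell for 40 D1 MSN, 38 D2 MSN and the 2 Chat-high cells; the marker shape gives the plate and the black bar the group's median. Meg3 and Snrpn were high in nearly every cell, Nap1l5, Ndn and Usp29 were spread from 0 upward, and Magel2 lay at 0 in all MSN but 1.

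Most neurons held most of the members. Of the 78 MSN, 23 had 7 members above 1 TPM, 20 had 6, 22 had 5 and 13 had 2 to 4, with a median of 6 in both groups. Snrpn was above 1 TPM in all 78 MSN, as were 93 listed genes in all, or 0.37% of the table. Meg3 was above 1 TPM in 76, Impact in 66, Nap1l5 in 61, Peg3 in 60, Usp29 in 53 and Ndn in 42. For comparison, the 7642 genes averaging at least 10 TPM were above 1 TPM in a median of 43.6% of MSN, and Ndn, at 53.8%, was the member nearest to that. This set is not matched for level, since the lowest mean of the 7 members other than Magel2 was 48.2 TPM (Peg3).

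The groups were then compared, which addresses whether both MSN classes use these genes alike. The fold given is the log2 of the mean TPM plus 1 of D1 MSN over that of D2 MSN. None of the 7 members averaging at least 1 TPM had an absolute log2 fold above 1. Of the 15671 genes with such a mean, 35.8% did, 21.1% as higher in D1 MSN and 14.8% as higher in D2 MSN. The 7 members all averaged above 48 TPM, and of the 7642 genes averaging at least 10 TPM, 12.4% were higher in D1 MSN and 9.58% in D2 MSN by that limit. The folds of the 7 members ran from -0.99 to 0.72 with a median of 0.32, where the median of all 15671 genes was 0.09. Snrpn, Ndn and Usp29 had the lower mean in D1 MSN, and Nap1l5, Peg3, Impact and Meg3 the higher mean, on both of the larger plates. When each cell was rescaled by its upper quartile, the folds of Meg3 and Impact changed sign. Those of the other 5 kept theirs, but Ndn went to -3.27 and Snrpn to -3.03. With the cells under 2000 genes also left out, Ndn was at -0.32 and Snrpn at -0.68.

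**Figure D2:**
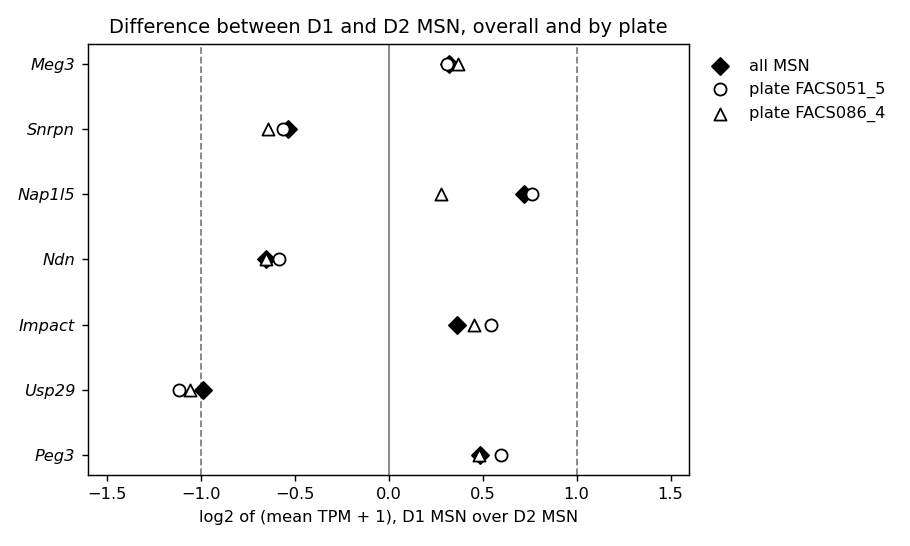
Log2 fold of mean TPM plus 1, D1 MSN over D2 MSN, for the 7 genes other than Magel2: filled diamonds are all MSN, circles the cells of plate FACS051_5 and triangles those of plate FACS086_4; dashed lines mark an absolute log2 fold of 1. Usp29 was the farthest below 0 on both plates, and each of the 7 genes lay on the same side of 0 on both.

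Among the RNAs and proteins of splicing and of the Prader-Willi region, Snrpn had the lower level in D1 MSN, with more low cells among them. In D1 MSN its lowest, median and highest values were 1.08, 388 and 2476 TPM, and in D2 MSN 7.01, 654 and 1840 TPM. The ranges overlapped nearly whole, but 10 D1 MSN were at or under 100 TPM against 3 D2 MSN. The means were 517 ± 493 and 748 ± 407 TPM (SD over 40 and 38 cells), a log2 fold of -0.53, with -0.56 on plate FACS051_5 and -0.64 on plate FACS086_4. Leaving out any 1 cell kept the fold between -0.68 and -0.48. The lowest value was that of the cell with 648 genes.

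The table lists Snurf, an open reading frame of the same transcript, as a gene of its own, and 216 of the 2159 exon bases of Snrpn are shared with it. Snurf was found in 13 D1 MSN and 7 D2 MSN and exceeded Snrpn in 4 D1 MSN and 0 D2 MSN. How reads of the shared bases were split is not given in the sources used here, so the levels of the pair are uncertain. A larger stretch, 589 bases, is shared with Gm38393 on the same strand, which was found in 40 MSN with means of 30.01 and 31.97 TPM. Added together, Snrpn and Snurf had a log2 fold of -0.43, and of -0.42 with Gm38393. Snrpb, the close relative of Snrpn that most other tissues use, was above 1 TPM in 36 MSN. Snrpn made up a median of 99.9% of the sum of both, more than 90% in 60 MSN and less than 50% in 7.

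Ndn, in the same cluster, was found in fewer cells than any member but Magel2. In D1 MSN its lowest, median and highest values were 0, 0.53 and 473 TPM, and 18 of 40 cells were listed at exactly 0. In D2 MSN they were 0, 33.9 and 396 TPM, and 7 of 38 cells were at 0. The highest values of the groups were close, while 7 D1 MSN and 13 D2 MSN lay above 100 TPM. The share of cells in which Ndn was found was 45% of D1 MSN (Clopper-Pearson 95% interval 29.3 to 61.5%) and 63.2% of D2 MSN (45.99 to 78.2%). These intervals overlapped, and they allow for counting error alone. The log2 fold of the means, 52.4 ± 97.2 against 83.0 ± 113 TPM, was -0.65, with -0.59 and -0.65 on the larger plates. The D2 MSN median was 77.9 TPM on plate FACS051_5 and 1.23 TPM on plate FACS086_4, and Ndn was found in 38.9% of D1 MSN and 75% of D2 MSN on the former and in 47.6% and 52.6% on the latter. The gap in shares was thus wider on plate FACS051_5.

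Magel2, which lies 26747 bases from Ndn and encodes a MAGE protein that acts with the ubiquitin ligase TRIM27, was at 0 in 77 MSN. The exception was a D1 MSN at 0.35 TPM, under the limit of 1 TPM, and the shares were 0 of 40 D1 MSN (upper bound 8.81%) and 0 of 38 D2 MSN (upper bound 9.25%). No fold is therefore given. With no depth given per cell, an absence of Magel2 cannot be told from a level too low to be read.

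Usp29 had the largest fold of the 7 other genes. Its lowest, median and highest values were 0, 3.93 and 422 TPM in D1 MSN, and 0, 22.1 and 473 TPM in D2 MSN. The ranges overlapped throughout, and the difference lay in the middle of the distribution, with 11 of 40 D1 MSN above 10 TPM against 22 of 38 D2 MSN. The means were 33.0 ± 86.4 and 66.3 ± 113 TPM, a log2 fold of -0.99, with -1.12 on plate FACS051_5 and -1.06 on plate FACS086_4. A single cell held 32.01% of the summed D1 MSN level and another 18.8% of that in D2 MSN. Leaving out any 1 cell placed the fold between -1.49 (without well A06 of plate FACS086_4) and -0.73 (without well B06 of plate FACS051_5), so its side of the limit was set by single cells.

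Peg3 leaned to the other side, although its first exon lies 146 bases from that of Usp29 in GENCODE M21. Its lowest, median and highest values were 0, 30.4 and 439 TPM in D1 MSN, and 0, 14.5 and 235 TPM in D2 MSN. Peg3 was found in 85% of D1 MSN (70.2 to 94.3%) and in 68.4% of D2 MSN (51.3 to 82.5%), again with overlapping intervals. The log2 fold was 0.49 (means 56.2 ± 90.1 and 39.8 ± 55.7 TPM), with 0.60 and 0.48 on the larger plates and 0.22 to 0.69 on leaving out any 1 cell. Peg3 is thought to act as a DNA-binding repressor, and the pair is transcribed in opposite directions from either side of the stretch printed above.

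**Figure D3:**
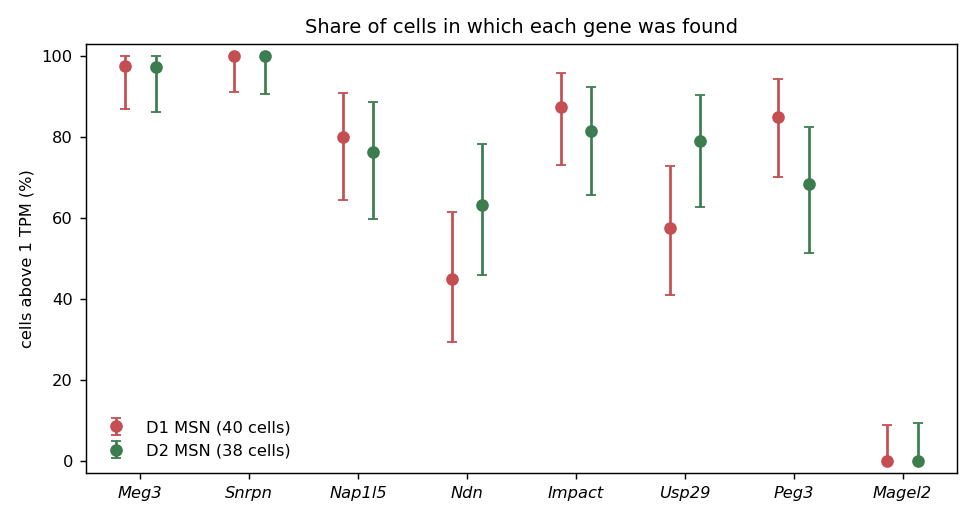
Share of D1 MSN and D2 MSN above 1 TPM for each of the 8 genes, drawn with 95% Clopper-Pearson intervals for counting error alone. The intervals of both groups overlapped for every gene, with the widest gaps for Usp29 (57.5 and 78.9%), Ndn (45 and 63.2%) and Peg3 (85 and 68.4%).

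Nap1l5 spanned a wide range in either group. In D1 MSN its lowest, median and highest values were 0, 137 and 1399 TPM, and in D2 MSN 0, 43.2 and 1102 TPM. Above 100 TPM were 22 of 40 D1 MSN and 14 of 38 D2 MSN, and at 0 were 6 cells of each group. The means were 208 ± 274 and 126 ± 206 TPM, a log2 fold of 0.72, with 0.76 on plate FACS051_5 and 0.28 on plate FACS086_4. Leaving out any 1 cell kept it between 0.49 and 1.05. Herc3, which surrounds Nap1l5 on the other strand, had means of 25.4 and 15.9 TPM, and the rho between them was 0.16.

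Meg3 and Impact were the members with the least difference. Meg3 had lowest, median and highest values of 0.08, 709 and 2553 TPM in D1 MSN, and 0.91, 440 and 2028 TPM in D2 MSN, with means of 809 ± 645 and 648 ± 573 TPM. Its log2 fold was 0.32 (0.31 and 0.37 on the larger plates). The lowest Meg3 value of all belonged to the D1-labelled cell with the astrocyte markers, and without that cell the fold was 0.36. Impact had lowest, median and highest values of 0, 42.3 and 275 TPM in D1 MSN, and 0, 27.9 and 248 TPM in D2 MSN, with a log2 fold of 0.36 (0.54 and 0.45). It was found in 35 of 40 D1 MSN and 31 of 38 D2 MSN.

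Means of TPM are carried by the highest cells, so the same comparison was also made on the difference of mean log2(TPM + 1), in which each cell weighs alike. On that scale the difference, D1 MSN minus D2 MSN, was -1.50 for Usp29, -1.15 for Snrpn and -1.13 for Ndn. Of the 15671 genes, 246, or 1.57%, were lower in D1 MSN by more than 1. That share covers all genes averaging at least 1 TPM and is not matched for level. Usp29, the lowest of these 3 members by mean, averaged 49.2 TPM. Usp29 and Snrpn stayed past 1 within both larger plates, with differences of -1.75 and -1.59 for Usp29 and of -1.11 and -1.41 for Snrpn. Ndn did so on plate FACS051_5 (-1.85) and not on plate FACS086_4 (-0.49). Without well D04 of plate FACS051_5 and the 3 cells under 2000 genes, the differences were -1.59 for Usp29, -0.96 for Snrpn and -1.01 for Ndn. Meg3 (0.34) and Impact (0.40) changed sign on plate FACS051_5, to -0.30 and -0.11.

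The balance of the most abundant pair differed between the groups within single cells, a comparison that no scaling of a cell can alter. Meg3 exceeded Snrpn in 27 of 40 D1 MSN, whereas Snrpn exceeded Meg3 in 26 of 38 D2 MSN. The pair was chosen as neighbors in the order of means, and the counts describe cells of 1 sample per group.

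Across the 78 MSN, the members hardly moved together. Of the 21 pairs among the 7 members other than Magel2, Spearman's rho ran from -0.07 to 0.31 with a median of 0.11, and 1 pair was above 0.3. That pair was Snrpn and Usp29 (0.31), which are far apart on chromosome 7, and its rho was 0.51 on plate FACS051_5 and 0.14 on plate FACS086_4. It was 0.55 within D2 MSN and -0.05 within D1 MSN. The cells share plates and differ in depth, and rho with the number of genes found was 0.46 for Meg3, 0.38 for Nap1l5 and 0.03 for Ndn, against a median of 0.32 over 3448 genes found in at least 50% of MSN.

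Among genes that share a cluster, Peg3 and Usp29 were not alike, whereas Meg3 and Rian were. Peg3 and Usp29 had a rho of 0.05, with both above 1 TPM in 44 MSN, Peg3 alone in 16, Usp29 alone in 9 and neither in 9. Ndn and Snrpn, which share a cluster but are not adjacent, had a rho of 0.27 (0.46 and 0.14 on the larger plates). In the same region, Snrpn had a rho of 0.05 with Snhg14, of 0.14 with Snurf and of 0.07 with Ube3a. Meg3 and Rian, the non-coding RNA that follows it after 32213 bases and hosts small nucleolar RNAs, had a rho of 0.61, with 0.47 on plate FACS051_5, 0.77 on plate FACS086_4 and 0.50 once the number of genes found was taken out. Meg3 and Mirg, the microRNA host farther along the cluster, had a rho of 0.45, and of 0.30 with the number of genes taken out.

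**Figure D4:**
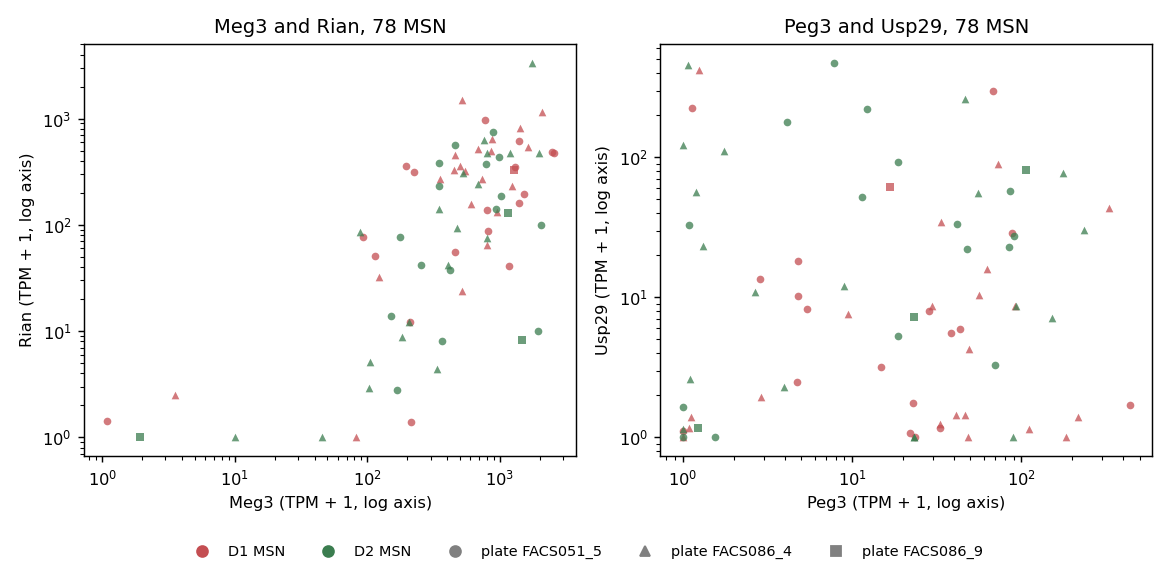
Levels of Meg3 against Rian and of Peg3 against Usp29 in 78 MSN, as TPM plus 1 on log axes, with color for the group and marker shape for the plate. Rian was high in cells with high Meg3 (rho 0.61), while cells high in either Peg3 or Usp29 were spread over the other gene's whole range (rho 0.05).

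By rho over the 78 MSN, among the 3447 other genes found in at least 50% of them, the genes most like Meg3 were Gm26905 (0.68), a long non-coding RNA gene, Rian (0.61) and Gm42519 (0.59). For Snrpn they were the ubiquitin gene Ubb (0.79), the pseudogene Gm1821 (0.69) and Zwint (0.68), and Pcnp (0.52) and Cops7a (0.52) were among those most like Nap1l5. Snrpn and Ubb were alike on both larger plates, at 0.87 and 0.69. For Usp29 the leading gene was Mllt11 (0.51), for Peg3 Gm37515 (0.47), for Impact Psap (0.41) and for Ndn Actg1 (0.40). The median over all genes compared lay between 0.04 for Ndn and 0.17 for Snrpn.

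In the wider set of imprinted genes, 9 genes passed the limit on each side. Of 86 names in the list, 69 were listed and 56 averaged at least 1 TPM, so that 18 passed an absolute log2 fold above 1. That is 32.1% of the list beside 35.8% of all genes, and the list's median fold was 0.04. None of these 18 was a member. The share depended on the scale. Among the 39 list genes averaging at least 10 TPM, 10.3% were higher in D1 MSN and 17.9% in D2 MSN, beside 12.4% and 9.58% of all such genes. On the difference of mean log2(TPM + 1), 10.7% of the 56 were higher in D1 MSN and 12.5% in D2 MSN by more than 1. Of all genes, 4.43% and 1.57% were. Of the 7 list genes higher in D2 MSN, 3 were the members Usp29, Snrpn and Ndn. These shares are not matched for level: 39 of the 56 list genes averaged at least 10 TPM, against 7642 of the 15671 genes.

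Within the clusters of the members, some neighbors had wider folds than the members. In the Dlk1-Dio3 cluster, Mirg had a log2 fold of 1.65 (81.2 and 25.2 TPM), with 1.25 and 2.68 on the larger plates. Dlk1, a membrane protein of the paternal copy, had a fold of 3.47 that rested on the 4 D1 MSN and 1 D2 MSN in which it was found. Begain, a postsynaptic protein gene, had 1.12, but 0.12 on plate FACS051_5 against 3.69 on plate FACS086_4. Rian had a fold of 0.32 with medians of 268 and 88.6 TPM. Leaving out 1 cell, a D2 MSN at 3359 TPM, brought the fold to 0.88, the difference of mean log2 was 1.26, and the fold changed sign under the upper-quartile rescaling. Rtl1 had 0.10.

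In the Prader-Willi/Angelman region, Gabra5, a GABA receptor subunit, had a log2 fold of 3.89 and was found in 7 D1 MSN and 0 D2 MSN. Ube3a, the ubiquitin ligase of Angelman syndrome, which neurons use from the maternal copy, averaged 300 TPM over D1 MSN against 214 TPM over D2 MSN, a fold of 0.49 (0.49 and 0.46 on the larger plates). Snhg14, the long non-coding RNA of the region, was the most abundant imprinted gene after Meg3 and Snrpn, at 373 TPM. Its fold of 0.13 changed sign under the upper-quartile rescaling and also without plate FACS051_5. Gabrg3 had -0.24, and Mkrn3 and Peg12 had means under 1 TPM. In the Peg3 cluster, Zim1, Zim3 and Zfp264 had means under 1 TPM.

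Among the other imprinted genes averaging at least 10 TPM, the widest folds were those of Gnas and Nnat. Gnas, a G protein subunit that couples receptors to adenylyl cyclase, averaged 12.7 TPM over D1 MSN against 98.6 TPM over D2 MSN. Its fold was -2.86 (-2.61 and -4.70 on the larger plates), and it was found in 6 and 22 cells. Nnat, or neuronatin, a small membrane protein, had 23.01 and 155 TPM, a fold of -2.70 (-1.94 and -5.89), and was found in 9 and 19 cells. Both kept their sign under every alternative tried, as did Inpp5f, a phosphoinositide phosphatase (-1.22), and Rasgrf1, a Ras exchange factor (1.58, found in 35 D1 MSN and 22 D2 MSN). Tssc4 (-1.28) and Mcts2 (-1.03) were found in at most 13 cells of a group. Blcap (-1.25) was at -4.21 on plate FACS051_5 and 0.10 on plate FACS086_4, and Zrsr1 (1.04) at 2.66 and 0.01.

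**Figure D5:**
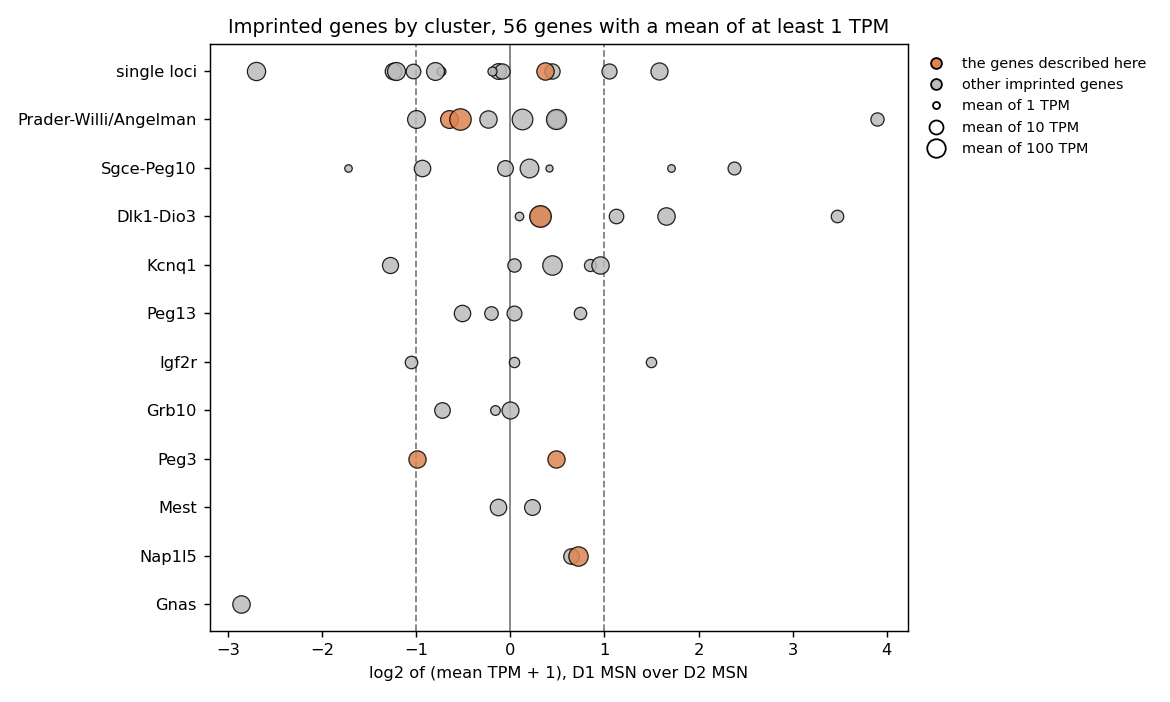
Log2 fold of mean TPM plus 1, D1 MSN over D2 MSN, for the 56 imprinted genes averaging at least 1 TPM, by cluster; circle size grows with the mean TPM, orange marks members of the 8 genes and dashed lines an absolute log2 fold of 1. All 7 orange circles lay inside the dashed lines, between -0.99 and 0.72, while the list as a whole ran from -2.86 to 3.89.

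Relatives and partners of the members were looked at in the same way, where 35.8% of all genes averaging at least 1 TPM passed the limit. Of 11 Sm and related splicing proteins, 9 were found in at least 50% of MSN and 1 passed the limit: Snrpe, with 66.7 and 234 TPM and a fold of -1.80 (-1.82 and -1.95 on the larger plates), on the same side as Snrpn. Of 7 MAGE genes averaging at least 1 TPM, 1 passed, Maged2 (1.96, found in 4 and 2 cells), and Maged1, which binds necdin, was the most abundant at 323 TPM with a fold of 0.13. Of 6 genes of the NAP1 family, 0 passed, and the most abundant beside Nap1l5 was Nap1l1 at 163 TPM (-0.13).

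Of 7 partners of necdin and MAGEL2, 3, or 42.9%, passed, all in the direction of D1 MSN, beside 35.8% of all genes and 21.1% in that direction. They were the ubiquitin protease Usp7 (1.29, 0.30 and 1.95 on the larger plates, with 1 cell at 2636 TPM), Trp53 (1.01) and E2f1 (1.21). Trp53 and E2f1 had medians of 0 in both groups, and E2f1 averaged 1.44 TPM. Leaving out 1 cell brought the fold of Usp7 to 0.35, of Trp53 to 0.61 and of E2f1 to 0.84. Of 6 genes of the GCN2 pathway that Impact acts on, 0 passed, with Ddit3 the most abundant at 65.9 TPM (-0.57). Of 10 genes that keep imprints, 40% passed, beside the same 35.8% of all genes. Ezh2 (3.75), Eed (1.28) and Zfp445 (2.12) were higher in D1 MSN past the limit and Jarid2 (-1.04) in D2 MSN. Leaving out 1 cell brought Ezh2, whose highest D1 MSN was at 925 TPM, to 1.82, Eed to 0.64 and Jarid2 to -0.61. Eed had opposite signs on the larger plates, -1.38 and 2.17, and Trim28, the corepressor that ZFP57 recruits, had 98.6 TPM and a fold of -0.61.

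The 2 Chat-high cells, given by their own values, had Snrpn, Nap1l5, Peg3 and Impact above the medians of both MSN groups. They also had the most genes found of all 80 cells, 10912 and 10251, where the highest MSN had 8657. Whether their levels follow the number of genes found was not tested. Snrpn was at 1848 and 1794 TPM, Nap1l5 at 1635 and 969 TPM, Peg3 at 121 and 101 TPM and Impact at 171 and 131 TPM in wells A08 and B02. Meg3, at 502 and 616 TPM, was near the MSN median, and Usp29 was at 30.3 and 8.03 TPM. Ndn was at 794 TPM in well A08 and at 0 in well B02. Had both cells been left among the D2 MSN, the log2 fold of Nap1l5 would have been 0.17 in place of 0.72.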

How the data were processed

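The values were TPM (length-scaled transcript shares) per gene and cell, deposited by the authors as 1 table of 80 cells. Per the methods and the submitters' processing notes, cDNA was made with the SMARTer Ultra Low Input kit, sequenced on a MiSeq, aligned with STAR 2.5.0 to mm10/GRCm38 with reporter sequences added and counted with featureCounts 1.5.1. How the TPM were derived from counts is not given in the sources used here, and the files give no depth per cell. The listed genes summed to between 506588 and 958040 TPM per cell. The study counted fewer than the 80 cells as usable without naming them. TPM do not separate the parental alleles.

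The members and all lists were chosen with earlier results of these data known. Groups followed the reporter label, with 2 Chat-high cells set apart. The labels name no animal, so no test was run and no p-value is given. The log2 fold used a pseudocount of 1 TPM, a limit of 1 and a mean minimum of 1 TPM, a cell counted at more than 1 TPM, and intervals were exact Clopper-Pearson (scipy 1.17.1, pandas 2.3.3). The fold computation was checked by raising some genes by a known factor in shuffled groups of these cells, which checks the arithmetic alone. Beside the members, genes were named if they shared a member's cluster, had the highest mean of their list or passed the limit with a mean of at least 10 TPM; Snrpb, Maged2, E2f1 and Zfp445 were named after their values were seen. The 3 genes with the highest Spearman rho were taken as most alike. A few genes that these rules name are not reported here. Positions came from GENCODE M21 (24024 of 25160 names matched) and sequences from RefSeq GRCm38.p6. Alternatives were another pseudocount, scaling, scale, plate, cell filter and low-value filter.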

Additional observations from a re-analysis of the deposited data

Results flagged for a closer look

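In the Chat-high cell in well A08 of plate FACS051_5, which the comparison of D1 and D2 MSN did not use, 3 members lay above the highest MSN. Ndn was at 794 TPM, where the highest MSN had 473 TPM, Nap1l5 at 1635 TPM against 1399 TPM, and Magel2 at 7.54 TPM against 0.35 TPM. In the Chat-high cell in well B02, Ndn and Magel2 were at 0 and Nap1l5 was at 969 TPM. Only 2 such cells were present, and they differed in Ndn and Magel2, so no level is given for the class. The cell in well A08 also had the most genes found of all 80 cells, 10912, against 8657 in the highest MSN.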

How the results depend on the processing

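Over the alternatives tried, the folds of the 7 members other than Magel2 kept their sign in 108 of 112 values. The exceptions were Meg3 (-0.66 and -0.72) and Impact (-4.12 and -0.02), each under both upper-quartile rescalings. Sizes held less well, as 55 of the 112 values moved by more than the SD of the folds on the larger plates. Values within 1 plate were not among the 112. On plate FACS051_5, the difference of mean log2(TPM + 1) changed sign for Meg3 (-0.30) and Impact (-0.11). The upper-quartile factor was 382 for the cell with 648 genes and 189 for the cell with 1215 genes. The count of members with an absolute log2 fold above 1, 0 as reported, became 1 (Usp29) with a pseudocount of 0.1 TPM, with the mean of the folds within the 2 large plates, without plate FACS086_9, with listed genes rescaled to an equal total, and without the cells under 2000 genes. It was 1 (Nap1l5, 1.02) without plate FACS086_4, 3 on the difference of mean log2(TPM + 1), and 5 under the upper-quartile rescaling, or 2 when that was run without the cells under 2000 genes, a pair of choices added after the data were seen, as were leaving out each cell in turn and leaving out the 4 cells with markers against their label.

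For the list of imprinted genes, the 18 of 56 past the limit became 7 of 56 with a pseudocount of 10 TPM (12.5%, beside 7.96% of all genes), 28 of 57 under the upper-quartile rescaling (49.1%, beside 48.4%), 11 of 39 with a mean minimum of 10 TPM (28.2%, beside 21.997%) and 13 of 56 on the difference of mean log2(TPM + 1) (23.2%, beside 6.005%). The list's median fold of 0.04 became 0.020 with a pseudocount of 10 TPM, -0.056 as the mean within plates, 0.13 without plate FACS086_4, 0.11 rescaled to an equal total, -0.20 under the upper quartile and -0.14 with the low cells also out, -0.018 with the Chat-high cells kept, 0.0064 without the cells under 2000 genes, 0.069 without well D04 of plate FACS051_5, and -0.0043 with a mean minimum of 10 TPM. Except with the mean minimum of 10 TPM, the shares of all genes given here are not matched to the list for level. As reported, 35.8% of all genes passed the limit. On the mean log2 difference, 73.9% of those past the limit were higher in D1 MSN in place of 58.8%. Of 80 alternative values of the shares of cells, 14 left the 95% interval. No paired analysis was possible because no result comes from a test and the labels tie no cell to an animal. The plates hold both groups. Values within the large plates stand beside the fold of each member other than Magel2, and beside those of only some of the other genes named.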
